A study of Homo sapiens with 4 samples.

Results

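Imprinted genes are transcribed from only one of the parental copies, and the set described here holds the known imprinted genes outside the growth factor gene IGF2. They were taken by name from a list of 33 genes. The rule used no threshold on a measured value, but the list was drawn up with earlier results of these data known. Of the 33 genes, 28 had a row in the deposited table of 25283 genes. MEG3, MEG8, PEG3, MKRN3 and ZIM2 had no row and were not analysed here. RNA-seq was run on 4 libraries of cells labelled as neurons, which had been differentiated by way of neural progenitors from the human embryonic stem cell line H1. The 2 control libraries carry the genotype label of wild type with an empty vector, and the 2 libraries titled U1_OE that of overexpression of U1 snRNA. U1 snRNA is the RNA of the spliceosomal particle that recognises 5′ splice sites. The treatment text, 36 hours with a lentiviral vector, is the same for both groups and names the overexpression vector. What vector the controls received is thus given differently by these labels, and the grouping rests on the titles and the genotype. Separate cultures are not stated for the replicates, so p-values cover only the spread of these libraries, which may be technical.

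Library totals lay between 16713505 and 19057423 counts. The level of U1 snRNA was not analysed here, so its overexpression was not checked in any of them. The labelled cell type was checked against marker genes: all 10 mesenchymal markers reached 10 CPM (TMM-scaled counts relative to library size) in every library, whereas 5 of 12 listed neuronal markers reached 1 CPM in every library. DCX, a marker of young neurons, was listed at 0 in 1 library of each group, and STMN2 lay at or under 0.318 CPM. MAP2 (2.64 to 6.60 CPM), SYT1 (3.66 to 8.15), SNAP25 (5.53 to 8.18) and INA (1.12 to 5.07) were among the 5. Of the neural progenitor markers, NES lay between 24.3 and 44.5 CPM and PAX6 between 5.58 and 19.7 CPM. SOX2 lay at or under 1.23 CPM and FABP7 at or under 0.579 CPM, and SOX1 and HES5 had no row. The summed mesenchymal markers were 72227 and 83562 CPM in the controls, 87666 and 78253 CPM in U1_OE, and the summed neuronal markers 186 and 120.1 against 289 and 359 CPM. Most of the neuronal sum was TUBB3, a neuronal tubulin, with 159 and 104 CPM in the controls and 264 and 338 CPM in U1_OE (log2 fold change 1.19 ± 0.26; edgeR adjusted p = 0.459, DESeq2 adjusted p = 0.00142). Of the 10 neuronal markers with a row, 6 had a higher and 4 a lower mean in U1_OE, the lower ones being STMN2, RBFOX3, SYT1 and NEFL. Among the mesenchymal markers DESeq2 called POSTN, a matrix protein, with 72.4 and 142 CPM in the controls and 273 and 229.7 CPM in U1_OE (DESeq2 adjusted p = 0.00990; edgeR adjusted p = 0.481). The part of either marker list in the members' values was not tested. Levels below are therefore those of cells with an abundant collagen-type transcriptome, and in bulk RNA fewer cells of a type and less RNA per cell cannot be told apart.

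Imprints are methylation marks laid down in the egg or the sperm at control regions, and kept through later divisions. A single control region often sets the active copy of several neighbouring genes, some coding and some noncoding, so imprinted genes lie in clusters. Many of them act on fetal growth, the placenta, muscle, fat and the brain, and the zinc finger protein ZFP57 is known to help keep imprints through a short sequence in which its CpG is methylated.

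Sequences around start sites are given for some of the members whose counts are described below as pairs or as extremes. Promoter windows (RefSeq, GRCh38.p14, 250 bases before to 50 after a start site) were found for 21 of the 33 genes. Capitals mark TGCCGC, the core of the ZFP57 motif, or its reverse complement GCGGCA. Overlapping matches on the opposite strands were counted separately. Of genes with several windows, the one printed is that with the most matches, so the printed set is not typical of their windows. SNURF and SNRPN share the window on chromosome 15 (chr15:24954737-24955036, plus strand), PLAGL1 and HYMAI that on chromosome 6 (chr6:144008210-144008509, minus strand). The MEST window shown is chr7:130491835-130492134 (plus strand), that of DIRAS3 chr1:68050578-68050877 (minus strand) and that of H19 chr11:2001217-2001516 (minus strand).
SNURF and SNRPN: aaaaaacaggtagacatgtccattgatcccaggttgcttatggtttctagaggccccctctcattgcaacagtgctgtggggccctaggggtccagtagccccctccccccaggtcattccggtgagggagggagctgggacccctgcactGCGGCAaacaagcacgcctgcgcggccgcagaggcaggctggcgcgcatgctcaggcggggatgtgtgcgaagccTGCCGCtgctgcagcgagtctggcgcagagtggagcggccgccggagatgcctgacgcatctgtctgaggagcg
PLAGL1 and HYMAI: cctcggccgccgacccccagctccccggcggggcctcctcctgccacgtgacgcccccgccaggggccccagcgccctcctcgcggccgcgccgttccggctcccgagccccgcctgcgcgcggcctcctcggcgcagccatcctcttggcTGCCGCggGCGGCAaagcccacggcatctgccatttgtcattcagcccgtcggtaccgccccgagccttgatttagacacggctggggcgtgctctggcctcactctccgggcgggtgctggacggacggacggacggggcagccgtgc
MEST: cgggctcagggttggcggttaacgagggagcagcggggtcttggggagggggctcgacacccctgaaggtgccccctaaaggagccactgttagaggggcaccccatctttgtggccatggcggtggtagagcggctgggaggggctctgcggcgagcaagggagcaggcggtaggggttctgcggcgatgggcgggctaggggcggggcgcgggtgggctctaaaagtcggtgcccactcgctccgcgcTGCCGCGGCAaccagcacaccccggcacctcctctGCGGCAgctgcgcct
DIRAS3: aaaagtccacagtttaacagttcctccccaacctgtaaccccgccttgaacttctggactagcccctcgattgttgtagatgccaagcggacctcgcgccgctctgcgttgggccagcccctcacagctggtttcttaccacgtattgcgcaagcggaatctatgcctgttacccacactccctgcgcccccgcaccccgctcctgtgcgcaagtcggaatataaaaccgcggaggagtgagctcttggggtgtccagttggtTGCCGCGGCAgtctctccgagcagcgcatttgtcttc
H19: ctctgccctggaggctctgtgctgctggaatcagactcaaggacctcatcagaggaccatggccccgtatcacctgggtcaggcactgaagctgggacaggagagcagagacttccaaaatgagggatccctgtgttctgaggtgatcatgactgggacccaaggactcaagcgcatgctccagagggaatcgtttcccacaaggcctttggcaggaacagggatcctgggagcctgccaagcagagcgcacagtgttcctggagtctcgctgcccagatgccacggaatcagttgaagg
The printed window of MEST held 3 matches, those of the SNURF and PLAGL1 pairs and of DIRAS3 2 each, and that of H19 0. MEST has 5 windows, with 0 to 3 matches each and 4 of them with a match. PLAGL1 has 5 windows, of which the one shown alone held the motif. SNRPN has 4 windows, 2 of them with a match. DIRAS3 and H19 have 1 window each. Not printed are the windows of GNAS, 6 with 1 match in all, and of BLCAP, 3 with 1 match each. No window was found for PEG10, SGCE, NNAT or SLC22A18. Among members with a row and a window, 13 of 19 had the motif in at least 1 of their windows (68.4%), against 3528 of 11828 tested genes with a window (29.8%). The median GC content was 60.3% over the members' windows and 58.7% over all 35116 windows. Over all windows, 16.7% held the motif, and over the members' windows 45.8% (22 of 48). The windows shared by the SNURF and PLAGL1 pairs were counted for both genes of a pair. Windows of a gene can overlap, and genes with several starts have more chances of a match. A match describes letters and is not a binding site.

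The main comparison asked whether U1_OE changed these genes. None of them passed the test. With the quasi-likelihood test of edgeR, adjusted by Benjamini-Hochberg, 0 of the 27 members that passed the filter on low counts lay under an adjusted p of 0.05, beside 0% (0 of 17317) of all tested genes. At an unadjusted p under 0.05 there were 3 members, SLC22A18 and NDN lower and DIRAS3 higher in U1_OE, against a background of 9.08% (1572 of 17317; 4.36% higher and 4.72% lower). DESeq2 called 0 of the 27 members to which it gave an adjusted p, beside 0.972% of all genes with one (179 of 18420), and limma-voom called 0. Of the 27 tested members, 14 had a positive and 13 a negative log2 fold change, with a median of 0.01, against a positive share of 49.3% and a median of -0.01 over all tested genes. HYMAI, a noncoding RNA inside PLAGL1, was the member that did not pass the filter.

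**Figure D1:**
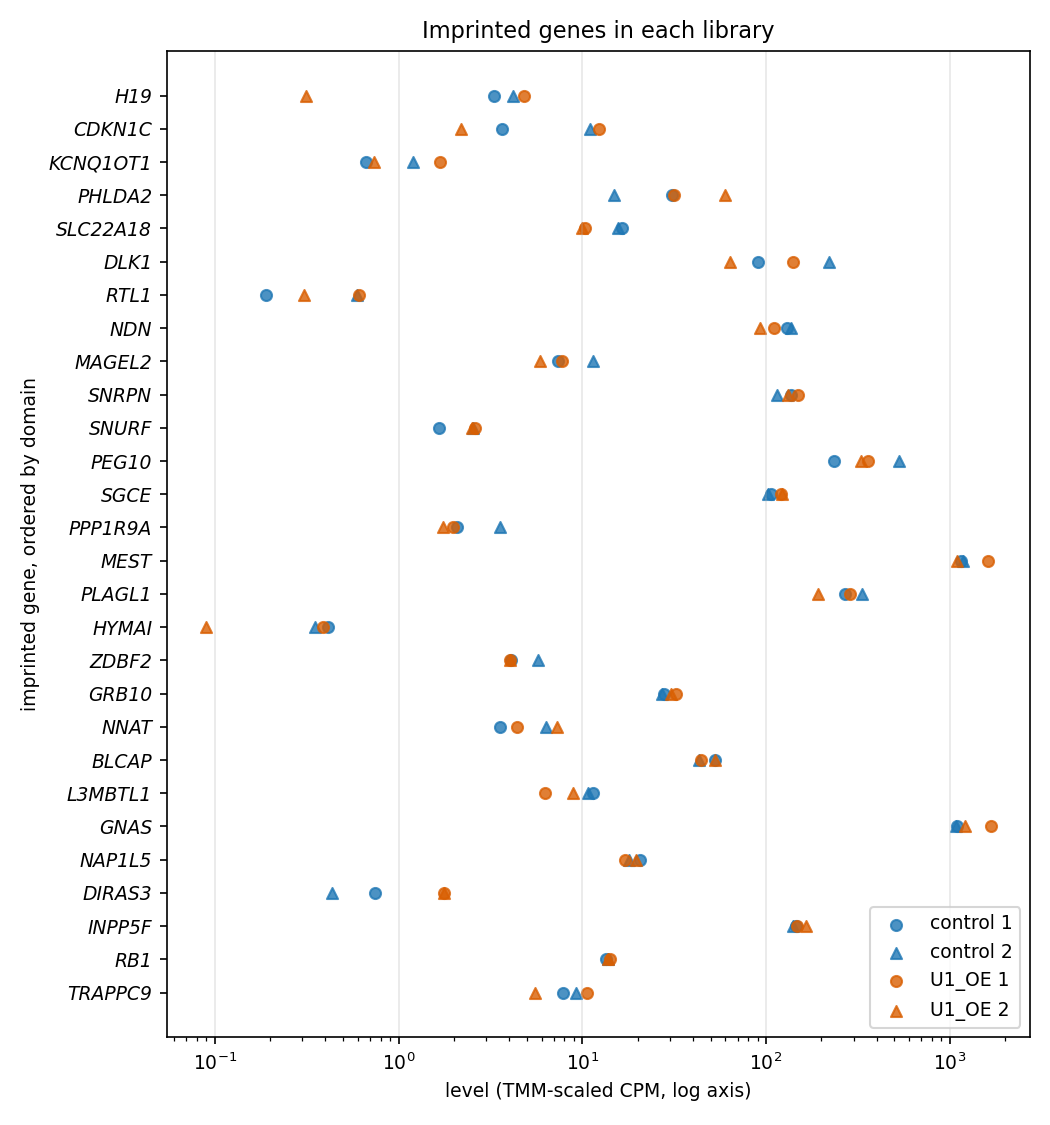
Level of the 28 measured imprinted genes in each of the 4 libraries (TMM-scaled CPM, log axis), with controls in blue and U1_OE in orange, circles for replicate 1 and triangles for replicate 2. MEST and GNAS lie highest, at 1086 CPM or more in every library, and the points of H19, CDKN1C and DLK1 spread more within a group than between groups.

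**Figure D2:**
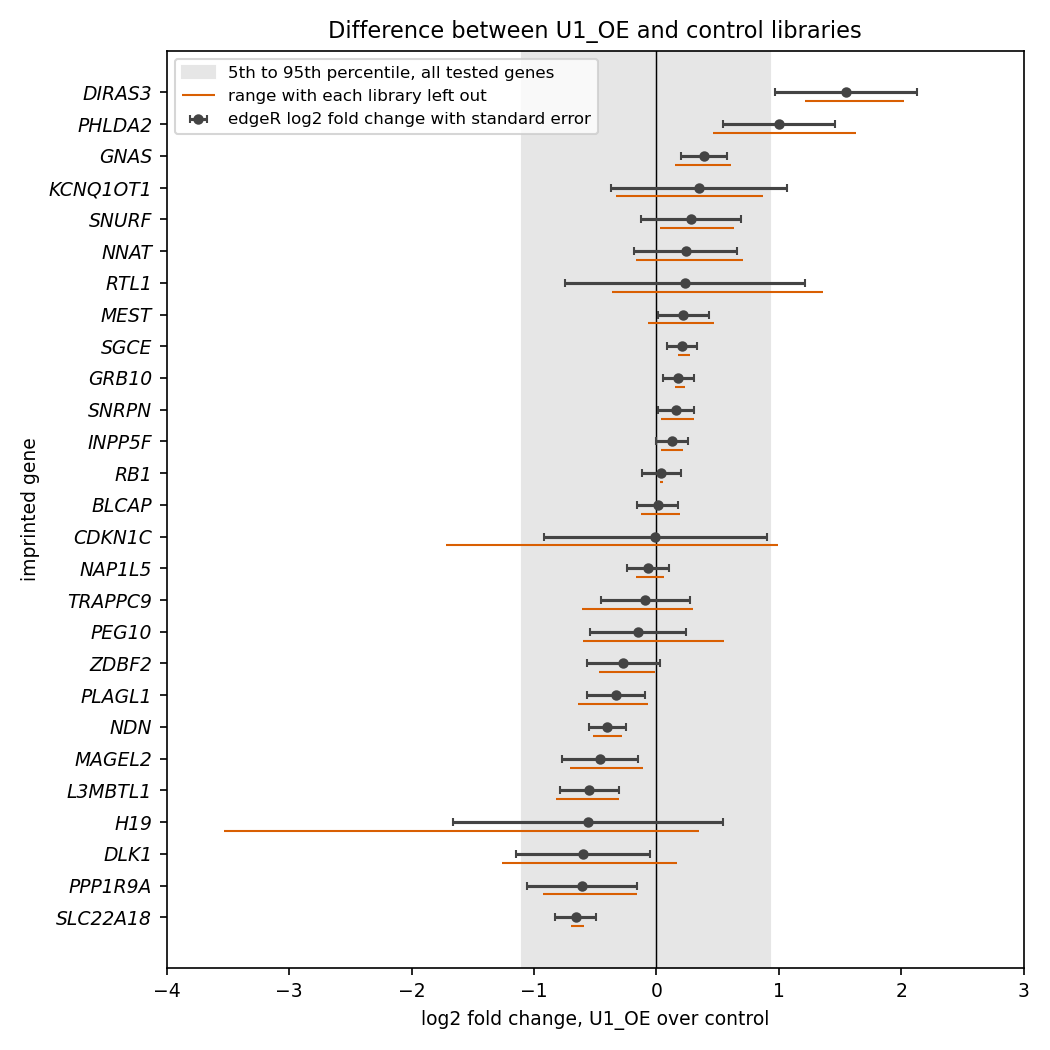
Log2 fold change of U1_OE over control for the 27 tested members (points, bars are standard errors of edgeR), the range when each library is left out (orange), and the 5th to 95th percentile of all tested genes (grey, -1.10 to 0.93). DIRAS3 and PHLDA2 lie beyond the grey band, and neither passed the test.

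H19, a noncoding RNA made from the maternal copy of a domain whose paternal copy makes IGF2, was low in every library (chromosome 11, 1995176 to 2001470, minus strand). It stood at 3.30 and 4.22 CPM in the controls and at 4.80 and 0.315 CPM in U1_OE 1 and 2. U1_OE 2 alone was low, 15.3-fold under U1_OE 1, while the controls differed 1.28-fold. The log2 fold change was -0.56 ± 1.10 (SE; edgeR adjusted p = 0.912), and it ran from -3.53 without U1_OE 1 to 0.35 without U1_OE 2. Levels of genes can be set side by side only per length of exon sequence. On that scale IGF2 was 1119- and 1070.2-fold above H19 in the controls, and 1054- and 7197-fold above it in U1_OE 1 and 2. IGF2 itself had 8904 and 10889.6 CPM in the controls, and 12189.9 and 5457 CPM in U1_OE, so it too was lowest in U1_OE 2.

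The KCNQ1 domain lies next to H19 on chromosome 11. KCNQ1OT1, the paternally made RNA that silences the domain in cis, had 0.661 and 1.20 CPM in the controls and 1.69 and 0.733 CPM in U1_OE. The groups overlapped (log2 fold change 0.35 ± 0.72, SE). CDKN1C, a cyclin-dependent kinase inhibitor that restrains growth, had 3.65 and 11.0 CPM in the controls and 12.4 and 2.19 CPM in U1_OE. Its libraries lay 3.01-fold apart in the controls and 5.66-fold in U1_OE, and the group means of 7.32 and 7.30 CPM were nearly the same. PHLDA2, a brake on placental growth (2928273 to 2929455, minus strand), had 30.8 and 14.9 CPM in the controls and 31.4 and 59.6 CPM in U1_OE. The lower U1_OE library thus met the higher control, with a log2 fold change of 1.00 ± 0.46 (edgeR adjusted p = 0.598) that was 0.46 without U1_OE 2 and 1.63 without control 1.

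SLC22A18, a membrane transporter of that domain (2899721 to 2925246, plus strand), had the smallest edgeR p of all members. It stood at 16.5 and 15.6 CPM in the controls and at 10.3 and 9.99 CPM in U1_OE, so each pair was tight and the pairs did not overlap. The log2 fold change was -0.66 ± 0.17 (SE; edgeR adjusted p = 0.459), and -0.70 to -0.59 with each library left out. DESeq2 gave -0.64 ± 0.34 (unadjusted p = 0.0576, adjusted p = 0.741). In DESeq2 the smallest unadjusted p of members were instead those of PHLDA2 (0.0230), GNAS (0.0405) and NDN (0.0414). Exons of SLC22A18 overlap the opposite-strand gene SLC22A18AS, and no strand-marking step is stated, so reads of this pair cannot be told apart.

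In the DLK1 and MEG3 domain on chromosome 14 both measured members are paternally expressed. DLK1, a transmembrane protein with epidermal growth factor repeats that holds back fat cell differentiation, had 90.8 and 219 CPM in the controls and 141 and 63.9 CPM in U1_OE. Control 2 was highest and U1_OE 2 lowest, and the groups overlapped. Its log2 fold change was -0.60 ± 0.55 (edgeR adjusted p = 0.779), and 0.17 without control 2. DIO3, an enzyme that inactivates thyroid hormone, lies in the same domain but is not one of the 33. It had 0.466 and 2.16 CPM in the controls and 1.99 and 0.228 CPM in U1_OE (log2 fold change -0.28 ± 1.23). RTL1, a retrotransposon-derived protein of placenta and muscle, lay under 1 CPM in every library, from 0.191 CPM in control 1 to 0.609 CPM in U1_OE 1. MEG9, a noncoding RNA of the same domain that is not one of the 33, was at 0 and 0.185 CPM in the controls and 0.522 and 1.28 CPM in U1_OE, and it did not pass the filter.

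The SNRPN domain on chromosome 15, whose loss from the paternal copy causes Prader-Willi syndrome, had 4 measured members. Their median fold between libraries of a group was 1.16 in U1_OE and 1.34 in the controls, against 1.26 and 1.19 over all tested genes. In the controls the fold was 1.05 for NDN and 1.18 for SNRPN, but 1.52 for SNURF and 1.54 for MAGEL2, which were lower in level. SNRPN, a core protein of the spliceosomal particles, had 136 and 115 CPM in the controls and 149 and 132 CPM in U1_OE. SNURF, encoded on the same transcripts upstream of SNRPN from the shared start shown above, had 1.66 to 2.60 CPM. SNURF took 1.21% to 2.15% of the summed counts of the pair, a split that depends on how the authors divided reads between overlapping exons. The sum was 138 and 118 CPM in the controls and 152 and 135 CPM in U1_OE. NDN, a MAGE family growth suppressor of neurons with 1 exon (23685400 to 23687330, minus strand), had 130.2 and 137 CPM in the controls and 110.1 and 92.4 CPM in U1_OE. The pairs did not overlap (log2 fold change -0.40 ± 0.15; edgeR adjusted p = 0.534), and the range with a library left out was -0.52 to -0.28. MAGEL2, a MAGE protein of endosomal recycling, had 7.38 and 11.4 against 7.80 and 5.88 CPM, and its groups overlapped. SNHG14, the long host RNA of this domain, is not one of the 33. It had 49.0 and 40.5 CPM in the controls and 89.6 and 52.3 CPM in U1_OE (log2 fold change 0.67 ± 0.29, edgeR adjusted p = 0.576). Exons of SNHG14 and SNRPN overlap on the same strand. The values of SNHG14, of SNRPN and of the sum above thus also depend on how reads were divided between them.

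PEG10 and SGCE are transcribed away from each other on chromosome 7, and their annotated 5′ ends overlap by 248 bases, so each can hold reads of its partner. PEG10, a retrotransposon-derived capsid-like protein needed in the placenta, had 235 and 531 CPM in the controls and 359 and 329 CPM in U1_OE. The controls bracketed both U1_OE libraries. SGCE, the sarcoglycan whose loss causes myoclonus-dystonia, had 107 and 103 CPM in the controls and 120.3 and 122 CPM in U1_OE, so the 2.26-fold gap of PEG10 between the controls had no counterpart in SGCE (1.05-fold). The log2 fold changes were -0.15 ± 0.39 for PEG10 and 0.21 ± 0.12 for SGCE. PPP1R9A, a neuronal actin-binding partner of protein phosphatase in the same cluster, had 2.09 and 3.57 CPM in the controls and 1.99 and 1.74 CPM in U1_OE (log2 fold change -0.61 ± 0.45).

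MEST and GNAS were the most abundant members per length of exon sequence. MEST, a lipase-like enzyme of mesoderm, had 239 and 247 CPM per kilobase in the controls and 336 and 229.8 in U1_OE, and GNAS 82.6 and 81.6 against 125 and 90.6 CPM per kilobase. MEST stood at 1145 and 1184 CPM in the controls and 1612 and 1102 CPM in U1_OE, where only U1_OE 1 was high (log2 fold change 0.22 ± 0.21). GNAS, the stimulatory G protein alpha subunit, is imprinted by isoform, and gene counts do not separate its isoforms. It had 1100.3 and 1086 CPM in the controls and 1667 and 1207 CPM in U1_OE, without overlap, at a log2 fold change of 0.39 ± 0.19 (edgeR adjusted p = 0.613). Without U1_OE 1 this was 0.15. MEST overlaps COPG2 and MESTIT1, and GNAS overlaps GNAS-AS1, each on the opposite strand.

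DIRAS3, a Ras-like GTPase that restrains growth, had the highest log2 fold change of the members, at a low level. It had 0.740 and 0.437 CPM in the controls and 1.77 and 1.76 CPM in U1_OE (chromosome 1, 68045896 to 68051631, minus strand). The U1_OE libraries were nearly equal and above both controls. The log2 fold change was 1.55 ± 0.58 (edgeR adjusted p = 0.541), ranging from 1.21 to 2.02 with a library left out. These values rest on 7.91 to 33.6 counts per library. DESeq2 gave an unadjusted p of 0.131. The gene overlaps GNG12-AS1 on the opposite strand.

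PLAGL1, a zinc finger transcription factor that regulates other imprinted genes, had 269.7 and 332 CPM in the controls and 287 and 191 CPM in U1_OE. U1_OE 2 was the lowest library and the groups overlapped (log2 fold change -0.33 ± 0.24). HYMAI, whose whole annotated length of 3347 bases lies within PLAGL1 on the same strand, had 0.414 and 0.352 CPM in the controls and 0.386 and 0.0895 CPM in U1_OE. ZDBF2, a zinc finger gene, had 4.07 and 5.72 against 4.02 and 4.06 CPM. L3MBTL1, a chromatin reader of methylated histones, had 11.4 and 10.7 CPM in the controls and 6.30 and 8.88 CPM in U1_OE. Both U1_OE libraries were below both controls, at a log2 fold change of -0.55 ± 0.24 (edgeR adjusted p = 0.582).

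NNAT lies within an intron of BLCAP on chromosome 20, on the opposite strand, and exons of the pair overlap in the merged annotation. NNAT, a small membrane proteolipid of the developing brain, had 3.58 and 6.34 CPM in the controls and 4.42 and 7.30 CPM in U1_OE. BLCAP, a small protein tied to growth control, had 53.0 and 43.2 against 44.2 and 52.7 CPM. Both overlapped between groups, with log2 fold changes of 0.24 ± 0.42 and 0.01 ± 0.17. NAP1L5, a histone chaperone-like gene with 1 exon, had 20.5 and 17.9 against 17.1 and 19.6 CPM.

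The members that are imprinted by isoform, by tissue or as a bias between copies were the steadiest of the 3 classes by the median fold between libraries of a group. Their median CPM, without regard to length, was also the highest, at 40.4 and 35.2 in the controls and 38.3 and 41.5 in U1_OE. For paternally expressed members it was 11.4 and 11.4 against 7.80 and 8.88 CPM. For maternally expressed members it was 3.65 and 11.0 against 10.3 and 2.19 CPM. The part of level in this steadiness was not tested. RB1, the retinoblastoma cell cycle repressor, stayed between 13.4 and 14.1 CPM in the 4 libraries (log2 fold change 0.04 ± 0.16). GRB10, an adaptor that dampens insulin and growth factor receptors, had 27.9 and 27.2 CPM in the controls and 32.4 and 30.3 CPM in U1_OE (0.18 ± 0.13). INPP5F, a phosphoinositide phosphatase, had 145 and 141 against 147 and 166 CPM (0.13 ± 0.13). TRAPPC9, a vesicle trafficking subunit, had 7.88 and 9.30 against 10.6 and 5.53 CPM, so its U1_OE libraries lay on both sides of the controls. For this class of 6 genes, including GNAS and BLCAP, the median fold between libraries of a group was 1.03 in the controls and 1.16 in U1_OE, against 1.19 and 1.26 over all tested genes. It was 1.46 and 1.26 for the 16 tested paternally expressed members, and 1.71 and 1.90 for the 5 maternally expressed ones. Each member was placed in 1 class only, and the ranking depends on that assignment.

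By the parental copy reported as expressed, the 5 tested maternally expressed members had a median log2 fold change of -0.56 (1 positive, 4 negative), and the 16 tested paternally expressed members had 0.05 (8 positive, 8 negative). The difference was not tested. Without U1_OE 2 the maternal median was 0.35 (3 positive, 2 negative) and without control 2 it was -0.16, and CDKN1C, counted as negative, stood at -0.01. The paternal median lay between -0.23 without control 1 and 0.17 without control 2. A single library thus reversed the direction of either class. By gene structure, the 4 tested members with 1 merged exon (KCNQ1OT1, NDN, MAGEL2, NAP1L5) had a median of -0.23, and the 23 with several exons 0.04. With a library left out these ran from -0.42 to -0.13 and from -0.09 to 0.19. Over all tested genes matched to the annotation these medians were -0.04 for 995 genes with 1 merged exon and -0.00 for 14837 with more.

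Groups did not overlap in 12 of the 27 tested members, 7 higher and 5 lower in U1_OE, a share of 44.4% beside 41.7% of all tested genes (19.7% higher, 22.1% lower). The higher members were PHLDA2, SGCE, GRB10, GNAS, DIRAS3, INPP5F and RB1. The lower members were SLC22A18, NDN, PPP1R9A, ZDBF2 and L3MBTL1. These shares are near the background.

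Spread within groups was large for some members, whereas the median fold between libraries over the 27 tested members was near the background. This median was 1.23 in the controls and 1.19 in U1_OE, against 1.19 and 1.26 over all tested genes. The U1_OE libraries lay at least 2-fold apart for H19, CDKN1C, KCNQ1OT1, DLK1 and RTL1, which is 5 of 27, beside 17.6% of all tested genes. All 5 were higher in U1_OE 1. The controls lay at least 2-fold apart for CDKN1C, DLK1, RTL1 and PEG10, higher in control 2, and for PHLDA2, higher in control 1, beside 12.3% of all tested genes. Control 2 above control 1 together with U1_OE 1 above U1_OE 2 was seen in 14 of the 27 members and in 27.7% of all tested genes, an order picked out after the values were seen. Of the 10 mesenchymal markers 8 had that order as well, all but FN1 and TAGLN, against 1 of 10 measured neuronal markers. The neural progenitor, muscle precursor, trophoblast, pluripotent and cell cycle lists each held 0 markers with it. A link between the order of the members and that of the mesenchymal markers was not tested. FN1, a fibronectin, had 19477 and 12711 CPM in the controls and 13659 and 14956 CPM in U1_OE, and TAGLN, an actin-binding protein, 114 and 40.4 against 197 and 401 CPM. Examples of the other 8 are the matrix proteoglycans LUM and DCN, with 959 and 1431 CPM for LUM and 308 and 704 CPM for DCN in the controls, and 1888 and 741 CPM for LUM and 1137 and 233 CPM for DCN in U1_OE. Over all 10 mesenchymal markers the median was 637 and 1068 CPM in the controls and 1513 and 663 CPM in U1_OE. The summed cell cycle markers, in contrast, were 46.6 and 63.8 CPM in the controls and 25.0 and 54.6 CPM in U1_OE. Of the muscle precursor markers, PAX3 lay between 16.8 and 38.1 CPM and DES between 21.3 and 58.2 CPM in the 4 libraries. MYF5 and PAX7 had no row, and MYOD1 was listed at 0 in control 1 and U1_OE 1.

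**Figure D3:**
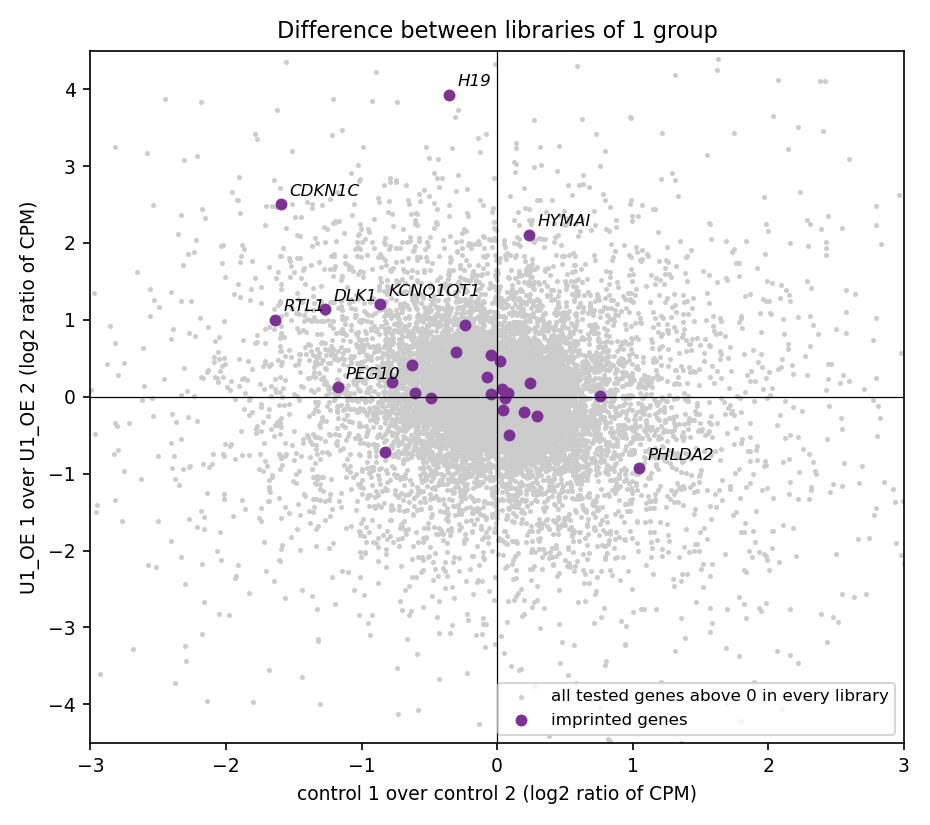
Log2 ratio of replicate 1 to replicate 2 in the control group (x axis) and in the U1_OE group (y axis) for the 28 imprinted genes (purple) and for tested genes above 0 in every library (grey; 98 of 16590 lie outside the axes). H19, CDKN1C, DLK1, RTL1 and KCNQ1OT1 lie in the upper left, higher in control 2 and in U1_OE 1.

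Further imprinted genes were read from a separate list of 52, of which 36 had a row and 29 were tested. Neither edgeR nor DESeq2 called any of them, and the median log2 fold change was -0.06, with 13 positive and 16 negative values. The highest levels, also per length of exon sequence, were those of IGF2, HM13, a signal peptide peptidase, and CPA4, a carboxypeptidase. The smallest edgeR p belonged to OSBPL5, a lipid-binding neighbour of the KCNQ1 domain. OSBPL5 had 25.7 and 34.4 CPM in the controls and 21.6 and 20.8 CPM in U1_OE (edgeR adjusted p = 0.547). IGF2-AS and the receptor gene CMKLR2 followed, with log2 fold changes of -0.59 ± 0.23 and 0.91 ± 0.38. IGF2-AS lies antisense to IGF2 and could hold its reads.

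Genes that set or keep imprints showed no call. Of 35 listed, 31 were measured and tested, and 20 log2 fold changes were positive and 11 negative, with a median of 0.03. TRIM28, the corepressor that ZFP57 recruits, had 211 and 235 CPM in the controls and 255 and 216 CPM in U1_OE. DNMT3L, ZFP57, CTCFL and DPPA3 had no row. The smallest edgeR p was that of DAXX, a histone H3.3 chaperone, at 0.68 ± 0.20 (edgeR adjusted p = 0.485). KDM1A, a histone demethylase, followed at 0.37 ± 0.13. UHRF1, which guides maintenance methylation, came next at 0.42 ± 0.26, and CBX3, a heterochromatin protein, was second to TRIM28 in mean CPM per kilobase and had a log2 fold change of 0.03 ± 0.13.

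Neighbours of the clusters that are not listed as imprinted gave 1 DESeq2 call among 55 tested genes and 0 by edgeR. Beside this, DESeq2 called 175 of all 17317 tested genes, and 0.972% of all genes to which it gave an adjusted p. SLC25A29, a mitochondrial carrier of basic amino acids in the region of DLK1, had 27.2 and 25.1 CPM in the controls and 11.4 and 10.4 CPM in U1_OE. Its log2 fold change was -1.25 by DESeq2 (adjusted p = 0.00628) and -1.26 ± 0.16 by edgeR (adjusted p = 0.459). The DESeq2 call was lost without any single library, at adjusted p of 0.164 to 1.000 and log2 fold changes of -1.31 to -1.19. BEGAIN, the gene next to DLK1, had 5.31 and 4.32 against 1.78 and 2.06 CPM (-1.32 ± 0.33; edgeR adjusted p = 0.459). CTNNBL1, a spliceosome-associated protein beside BLCAP, had 24.1 and 23.5 against 33.1 and 33.4 CPM (0.48 ± 0.13; edgeR adjusted p = 0.464). ITM2B, EEF1B2 and CD81 had the highest CPM of the neighbours, without regard to length. Per kilobase EEF1B2, SF3B5 and PIGY led, with means of 353, 295 and 143 CPM per kilobase. The log2 fold changes of ITM2B, EEF1B2 and CD81 were -0.08 ± 0.21, 0.12 ± 0.13 and 0.44 ± 0.33. Over the 55 tested neighbours the median was 0.02, with 29 positive and 26 negative values.

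**Figure D4:**
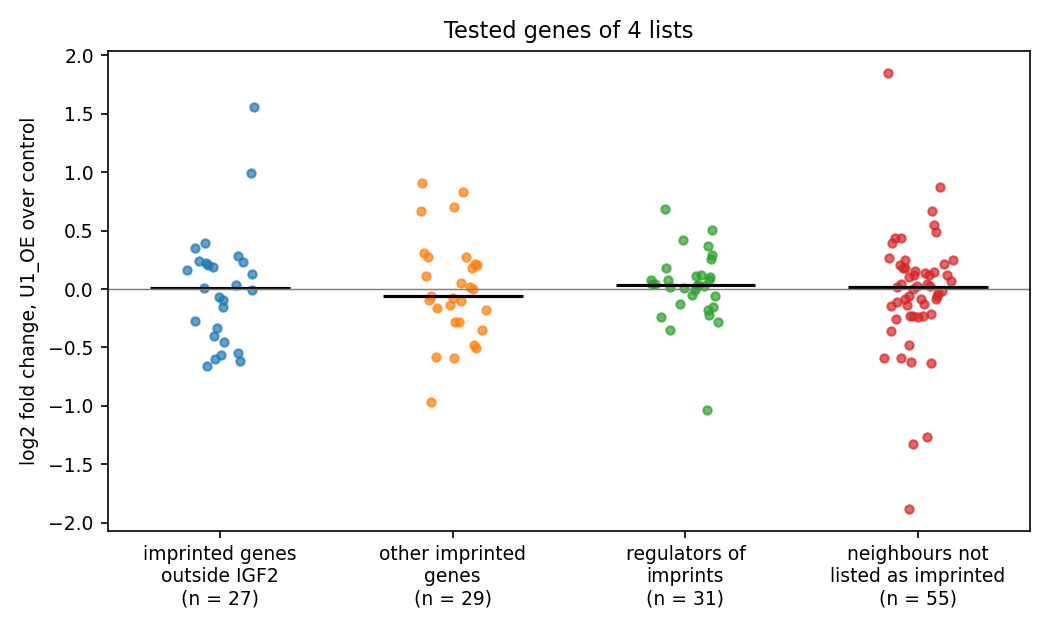
Log2 fold change of U1_OE over control for the tested genes of 4 lists (1 point a gene, spread sideways for sight; black lines are medians). The medians lie between -0.06 and 0.03, with 27 imprinted members, 29 other imprinted genes, 31 regulators and 55 neighbours.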

How the data were processed

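RNA-seq of 2 control and 2 U1_OE libraries was used as a table of estimated counts per gene, deposited by the authors without stated normalisation. Per the submitters' processing notes, the tools were Trim Galore, STAR, featureCounts and DESeq2 with hg38; no versions are recorded. Of the values above 0, 1.99% lie within 0.01 of a whole number, and the origin of the fractions is unknown, so values of overlapping genes depend on an unknown division of reads. Per the labels' protocols no strand-marking step is stated. Columns were assigned to samples by title.

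Counts were rounded to whole numbers. edgeR 4.0.16 in R 4.3.3 was used with filterByExpr (minimum count 10, leaving 17317 genes), TMM scaling and the quasi-likelihood test of U1_OE against control, with Benjamini-Hochberg adjustment over all tested genes and a threshold of 0.05. CPM values are TMM-scaled from the counts as deposited. SDs beside means are over 2 libraries, and standard errors beside edgeR log2 fold changes were worked back from the F statistic. CPM per kilobase uses the merged exon length in GENCODE 29 on GRCh38, which also gave positions. DESeq2 1.42.0 (default settings) and limma-voom (limma 3.58.1) were alternatives. With totals of 16713505 to 19057423 counts, members of about 1 CPM rest on few counts, and the number of libraries limits the rest. The procedures were also run on simulated data. The outcome is not reported here, so nothing is said about their power to find changes in these data.

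The 33 members and the other gene lists were chosen with earlier results of these data known. Named genes were all members and, of the other lists, genes called by edgeR or DESeq2, the 3 with the highest mean CPM and the 3 with the smallest edgeR p, with markers for the check of cell type. SNHG14, MEG9 and DIO3 were named as partners in a domain, and SF3B5 and PIGY for their level per kilobase, after their values were seen. Beside DESeq2 and limma-voom, alternatives were scaling by RLE or by library size, testing without a filter or from a mean of 50 counts, a replicate block, and leaving out each library. DESeq2 fits of SLC25A29 without each library were added after the data were seen. Same-numbered libraries share only a number.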

Additional observations from a re-analysis of the deposited data

How the results depend on the processing

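Over the 11 alternatives no imprinted member was called, and the lowest adjusted p of a member was 0.258, without U1_OE replicate 2. Over all genes edgeR called 0 in each of its fits, limma-voom 0 and DESeq2 179. The number of members with a positive log2 fold change was 9 of 22 where a mean of 50 counts was required, against 14 of 27; fewer genes were tested there. The median log2 fold change of the members lay between -0.20 and 0.10 with each library left out, the lowest without U1_OE replicate 1; the cause was not tested. With replicate number as a block, edgeR called 0 genes and 0 members, and the members' median was 0.01 with 14 positive; the labels share only a number, and the replicate differences of the groups correlated at -0.0821 across tested genes. Of the 27 tested members, 16 kept their sign in each fit that included them. BLCAP was -0.02 with library size alone and -0.01 where a mean of 50 counts was required, and CDKN1C was 0.00 with RLE and 0.01 with DESeq2. With each library left out, the log2 fold change ran from -0.13 to 0.19 for BLCAP, -1.72 to 0.99 for CDKN1C, -1.26 to 0.17 for DLK1, -3.53 to 0.35 for H19, -0.33 to 0.87 for KCNQ1OT1, -0.07 to 0.47 for MEST, -0.17 to 0.06 for NAP1L5, -0.17 to 0.71 for NNAT, -0.60 to 0.55 for PEG10, -0.36 to 1.36 for RTL1 and -0.61 to 0.30 for TRAPPC9. With one library of a group missing, the remaining one is taken to vary as the 2 of the other group do. The median over all tested genes was -0.01 under TMM, 0.01 under RLE and -0.04 under plain library sizes.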
